A study of Mus musculus with 4 samples.

Results

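The genes described here are 10 effectors by which T cells and natural killer (NK) cells kill or signal to other cells. They were chosen by symbol among the 31053 genes of the count tables. No cut on their values was used, but earlier results of these data were known. They are the granzymes Gzma, Gzmb, Gzmk and Gzmm, the pore-forming protein gene Prf1, the granule membrane protein gene Nkg7, the cytokine gene Ifng, the death ligand gene Fasl, and the surface receptor genes Klrk1 and Klrd1. All 10 were found, each as 1 row. The study measured RNA of single liver cells from C57BL/6 mice, in 1 library for each of 4 groups: control liver, liver labelled low-AFP or high-AFP, and HCC (hepatocellular carcinoma). AFP is the label's abbreviation. Where 4 values follow each other with no name, they stand in that order. Per the labels, the control library came from mice on a control diet and the low-AFP library from mice on a CD-HFD, an abbreviation the labels do not spell out. The high-AFP title names the control diet while its deposited matrix is named for CD-HFD, so the diet of that group was left as unresolved and groups are called here by their AFP label. The HCC library was a cell suspension from a tumour region. The mice were 15 months old by the titles and 17 months by another label field, and how many animals stand behind each library is not given in the sources used here. Parenchymal cells, purified over 30% Percoll, were mixed 1:1 with live-sorted non-parenchymal cells, so shares of cells follow that mixture and not the liver. With 1 library per group, differences between groups have no test here and describe these 4 libraries only.

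Cytotoxic lymphocytes store granzymes and perforin in secretory granules. On contact with a target, perforin opens its membrane and granzymes, which are serine proteases, enter and cleave proteins that lead to cell death. The same lymphocytes can kill by displaying Fas ligand and can act at a distance by secreting interferon gamma, and in the liver they are known for their part in both virus control and tissue damage. NKG2D (Klrk1) is an activating receptor for stress-induced ligands, and CD94 (Klrd1) pairs with NKG2 chains to read a non-classical class I molecule.

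Gzma (ENSMUSG00000023132) and Gzmk (ENSMUSG00000042385) are neighbours on chromosome 13 with 0 protein-coding genes between them, and Klrd1 (ENSMUSG00000030165) and Klrk1 (ENSMUSG00000030149) are likewise neighbours on chromosome 6. Gzmb (ENSMUSG00000015437) lies on chromosome 14 beside Gzmc. Prf1 (ENSMUSG00000037202), Gzmm (ENSMUSG00000054206) and Ifng (ENSMUSG00000055170) are on chromosome 10, Nkg7 (ENSMUSG00000004612) on chromosome 7 and Fasl (ENSMUSG00000000817) on chromosome 1. RefSeq promoter windows (GRCm38.p6) were matched for 9 of the 10 genes, Klrd1 being the other, and run from 250 bases before to 50 bases after the start of the gene. Below are the windows of 3 granzymes and perforin, because these 4 genes part from each other most clearly in the results: Gzma at chr13:113100932-113101231 on the minus strand, Gzmk at chr13:113180916-113181215 on the minus strand, Gzmb at chr14:56262285-56262584 on the minus strand, and Prf1 at chr10:61297586-61297885 on the plus strand. They are printed in the direction of the gene, with capitals for matches on either strand to 4 motifs: the T-box motif GGTGTGA, the RUNX motif TGTGGT, the AP-1 motif TGANTCA and the STAT motif TTCNNNGAA.
Gzma: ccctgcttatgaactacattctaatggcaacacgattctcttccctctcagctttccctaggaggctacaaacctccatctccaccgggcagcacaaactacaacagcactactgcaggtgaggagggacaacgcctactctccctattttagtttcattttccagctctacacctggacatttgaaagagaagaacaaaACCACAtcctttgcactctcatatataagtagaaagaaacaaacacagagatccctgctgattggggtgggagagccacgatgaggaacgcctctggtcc
Gzmk: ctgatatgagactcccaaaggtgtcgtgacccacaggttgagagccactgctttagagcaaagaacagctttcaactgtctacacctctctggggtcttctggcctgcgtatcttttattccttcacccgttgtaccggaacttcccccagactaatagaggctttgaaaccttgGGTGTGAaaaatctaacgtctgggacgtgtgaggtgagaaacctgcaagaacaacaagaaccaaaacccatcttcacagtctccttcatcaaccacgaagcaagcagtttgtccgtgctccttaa
Gzmb: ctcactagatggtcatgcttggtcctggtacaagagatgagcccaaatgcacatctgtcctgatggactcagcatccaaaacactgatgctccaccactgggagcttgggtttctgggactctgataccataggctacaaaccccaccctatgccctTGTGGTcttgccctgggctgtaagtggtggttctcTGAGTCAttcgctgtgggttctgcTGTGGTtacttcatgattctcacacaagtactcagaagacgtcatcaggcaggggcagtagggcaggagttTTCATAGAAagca
Prf1: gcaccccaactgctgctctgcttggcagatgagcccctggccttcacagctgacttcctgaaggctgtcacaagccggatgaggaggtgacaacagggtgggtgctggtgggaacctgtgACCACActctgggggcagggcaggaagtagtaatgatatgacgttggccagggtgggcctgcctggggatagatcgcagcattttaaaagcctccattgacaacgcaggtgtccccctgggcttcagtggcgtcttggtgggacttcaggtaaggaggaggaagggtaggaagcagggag

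Matches differed between the windows. Gzma held 1 RUNX match and Gzmk 1 T-box match, so the neighbouring granzymes shared none of the 4 motifs in these bases. Gzmb held 2 RUNX matches, 1 AP-1 match and 1 STAT match, and Prf1 held 1 RUNX match; no matches overlapped in the windows shown. Among all 32851 windows of the same table, 16.8% held the RUNX motif, 3.98% the T-box motif, 7.81% the AP-1 motif and 8.3% the STAT motif. A match of letters is a description and says nothing on whether a factor binds.

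After filters, 6036 cells in control, 5129 in low-AFP liver, 7902 in high-AFP liver and 7491 in HCC were kept, at median depths of 4685 to 7395 UMIs (unique molecular identifiers, counted RNA molecules). Kept barcodes shared between any pair of libraries numbered 3 to 29. Cells were clustered without the 10 genes, and clusters were named by marker genes. In T-like and NK-like clusters, cells were then sorted into subsets by UMIs of genes outside the 10: coreceptors Cd4, Cd8a and Cd8b1, the CD3 chains, Trdc, Foxp3, Pdcd1, and the NK receptors Ncr1 and Klrb1c. This gave 474, 450, 591 and 2684 T and NK lineage cells, in that order. CD8 T cells numbered 179, 249, 341 and 2075, and their share of the lineage was 37.8% in control (95% exact binomial interval 33.4 to 42.3), 55.3% in low-AFP liver (50.6 to 59.99), 57.7% in high-AFP liver (53.6 to 61.7) and 77.3% in HCC (75.7 to 78.9). NK or ILC1 cells, called so because the gate cannot part conventional NK cells from type 1 innate lymphoid cells, numbered 31, 53, 95 and 211. A further 30, 39, 59 and 136 cells of these clusters carried both coreceptors or met no gate and were set aside. CD8 T cells lay mostly in cluster 4 in control (93.9%), low-AFP (85.9%) and high-AFP (86.8%), but mostly in cluster 33 in HCC (71.7%), a cluster with 0, 13, 9 and 1565 cells of the 4 libraries.

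Levels are given as counts per 1000000 nuclear-encoded UMIs (CPM) summed over the cells of a subset, with 95% exact Poisson intervals. These intervals, like the binomial ones, cover counting error only and not differences between cells, preparations or animals. Over the 4 libraries, 93.4% of all Gzma UMIs, 89.98% of Gzmb, 91.6% of Gzmk, 90.5% of Gzmm, 92.2% of Prf1, 92.6% of Nkg7, 93.0% of Ifng and 91.3% of Fasl UMIs lay in the gated T and NK subsets. B-like cells, which should lack these genes, gave the background of free RNA: at median depths of 2607 to 3722 UMIs, a Gzmb UMI was found in 0% to 1.25% of them, a Gzma UMI in 0% to 0.974% and a Gzmk UMI in 0% to 1.81%. Nkg7, the most abundant of the 10, reached 6.4% of B-like cells and 6.95% of hepatocyte-like cells, both in HCC, the library with most T cells. In CD8 T cells the share with a Nkg7 UMI was 97.8% to 99.1% at median depths of 3727 to 4401 UMIs.

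The 2 receptor genes were less restricted. Only 54.2% of Klrd1 UMIs and 64.3% of Klrk1 UMIs came from the T and NK subsets. Conventional dendritic-like cells held 32.1% of all Klrd1 UMIs and 18.8% of all Klrk1 UMIs. Their Klrd1 level was 296 CPM in control, 301 in low-AFP liver, 418 in high-AFP liver and 421 in HCC, and a Klrd1 UMI was found in 62.5%, 72.0%, 70.5% and 70.1% of these cells. Klrk1 stood there at 171, 156, 156 and 141 CPM. In plasmacytoid dendritic-like cells Klrd1 was at 381, 498, 653 and 406 CPM and Klrk1 at 15.3, 41.5, 27.5 and 18.1 CPM. Nkg7, the strongest member in T cells, stood at 40.8, 73.2, 33.1 and 102 CPM in the conventional and at 2.19, 44.6, 35.4 and 28.4 CPM in the plasmacytoid dendritic-like cells. B-like cells held Klrd1 at 0, 0, 19.3 and 5.82 CPM. The values below are for gated T and NK cells only.

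**Figure D1:**
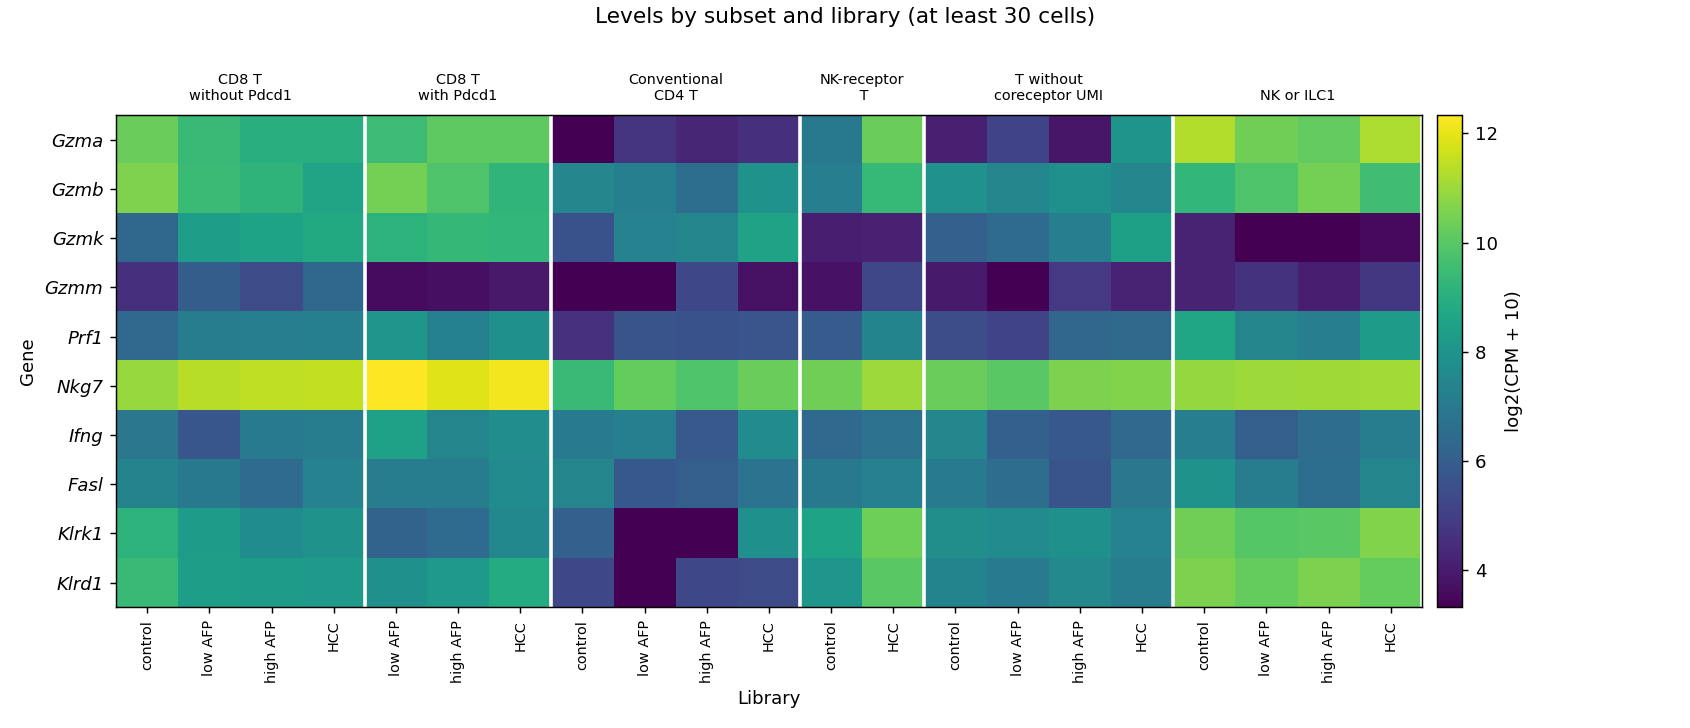
Each cell of the plot is the level of 1 gene (rows) in 1 subset and library (columns, at least 30 cells), as log2(CPM + 10) by the colour scale. Nkg7 is high in every CD8 T and NK column, Gzmk is dark in NK or ILC1 cells, and Gzma and Klrd1 are dark in conventional CD4 T cells.

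Granzyme A, a tryptase that cuts after basic residues, was carried by a minority of cells at very high counts. Its level in CD8 T cells was 1129 CPM in control (1056 to 1206), 687 in low-AFP liver (642 to 736), 783 in high-AFP liver (739 to 829.9) and 841 in HCC (823 to 859). A Gzma UMI was found in 19.6%, 20.9%, 16.4% and 21.8% of these cells. Over all libraries 273 of 2844 CD8 T cells, 9.6%, had 10 or more Gzma UMIs, and these cells held 91.2% of the Gzma UMIs of the subset. In NK or ILC1 cells the level was 2501, 1339.5, 1131 and 2379 CPM, from 38.7%, 22.6%, 17.9% and 29.9% of cells. There 77 of 390 cells, 19.7%, had 10 or more UMIs and held 97.7% of the total, with up to 234 UMIs in 1 cell. Most cells thus had 0 or few Gzma UMIs, and the level of a small group, such as the 31 control NK or ILC1 cells, rests on 9 cells with 10 or more. Conventional CD4 T cells held 0, 3, 1 and 4 Gzma UMIs in the 4 libraries.

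Granzyme B, the protease that activates caspases after aspartate, was more evenly spread. It stood in CD8 T cells at 1424 CPM in control (1341 to 1510.0), 983 in low-AFP liver (928 to 1040.0), 742 in high-AFP liver (699 to 787) and 496 in HCC (482 to 510), in 68.7%, 63.1%, 61.3% and 54.3% of cells. Control was highest and HCC lowest, and no intervals overlapped. With each cell thinned to 1000 UMIs the shares were 50.3%, 38.0%, 41.4% and 27.1%, so control was again highest and HCC lowest, while low-AFP and high-AFP changed places and their order is not read. NK or ILC1 cells showed another order of CPM, with 610.5 in control, 926 in low-AFP liver, 1391 in high-AFP liver and 749 in HCC. The shares of these cells with a Gzmb UMI were 54.8%, 54.7%, 55.8% and 43.1%, and 35.5%, 41.5%, 40.0% and 25.6% after thinning. The higher CPM of low-AFP and high-AFP than control was thus not seen in the unthinned shares. Over all libraries 61 of 390 NK or ILC1 cells had 10 or more Gzmb UMIs and held 77.1% of the Gzmb UMIs of the subset. How the counting treated reads that Gzmb could share with its paralogs Gzmc to Gzmg and Gzmn is not given in the sources used here.

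Granzyme K, another tryptase, was a gene of CD8 T cells and nearly missing from NK or ILC1 cells. Its CD8 T level was 96.1 CPM in control (75.6 to 120.5), 417 in low-AFP liver (382 to 455), 496 in high-AFP liver (461 to 534) and 541 in HCC (527 to 555). The share of CD8 T cells with a Gzmk UMI was 21.8% in control and 69.5%, 68.9% and 78.9% in the other libraries. After each cell was thinned to 1000 UMIs the shares were 5.65%, 35.1%, 33.7% and 39.6%, so the gap between control and the rest was also seen at equal depth. NK or ILC1 cells had 1, 0, 0 and 2 Gzmk UMIs. Where they had 0, a floor of 3 counts per library puts the CD8 T level at least 46.7-fold higher in low-AFP liver and at least 71.3-fold higher in high-AFP liver. Conventional CD4 T cells also carried it, at 38.3, 149, 161 and 357 CPM.

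Granzyme M, which prefers residues such as methionine and leucine, was rare. It was at 12.8 CPM in control (6.15 to 23.6), 32.1 in low-AFP liver (22.9 to 43.9), 18.2 in high-AFP liver (12.0 to 26.5) and 34.0 in HCC (30.5 to 37.8) in CD8 T cells, from 10, 39, 27 and 342 UMIs. Within CD8 T cells it sat almost wholly in those with no Pdcd1 UMI, with 10, 38, 25 and 312 UMIs there against 0, 1, 2 and 30 in those with one.

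Perforin and Nkg7, a protein needed for granule release, were both lowest in control CD8 T cells. Prf1 stood at 71.8 CPM in control (54.2 to 93.2), 183 in low-AFP liver (160.0 to 209), 140.5 in high-AFP liver (122 to 161) and 185 in HCC (177 to 194). Nkg7 stood at 2032 CPM in control (1934 to 2135), 3658 in low-AFP liver (3551 to 3768), 3269.5 in high-AFP liver (3178 to 3363) and 3907 in HCC (3868 to 3946). In NK or ILC1 cells Nkg7 differed little, at 1925, 2059.8, 2113 and 2162 CPM with overlapping intervals. Prf1 there was 382 CPM in control (278 to 511) and 304 in HCC (273 to 338), above 164 in low-AFP liver (123 to 213) and 135 in high-AFP liver (102 to 174).

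Ifng and Fasl were present at moderate levels in most subsets. In CD8 T cells Ifng was at 108 CPM in control (85.9 to 133), 166 in low-AFP liver (144 to 190.2), 143 in high-AFP liver (124 to 163) and 174 in HCC (166 to 182). In low-AFP a single cell held 51 of the 201 Ifng UMIs, and in high-AFP a single cell held 45 of the 211. Fasl was at 155, 122, 103 and 176 CPM in CD8 T cells. The HCC library also had the highest summed level of 10 immediate early and heat shock genes that respond to tissue dissociation, 2479 CPM in CD8 T cells against 1151 in control, 847 in low-AFP liver and 775 in high-AFP liver. The part of that response in the Ifng level, or in any other HCC value, was not tested.

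Klrk1 and Klrd1 were highest in NK or ILC1 cells. Klrk1 was found in 93.5%, 98.1%, 96.8% and 99.1% of them, at 1331 CPM in control, 976 in low-AFP liver, 1031 in high-AFP liver and 1576 in HCC. In CD8 T cells it was at 536 CPM in control (486 to 589.6) and at 204 (180 to 232), 143 (124 to 163) and 201 (192 to 209.8) in low-AFP liver, high-AFP and HCC. Klrd1 in CD8 T cells was at 628 CPM in control (574 to 686) and at 274 (245 to 305), 290.4 (264 to 319) and 387 (375 to 399.7) in the same order. Control was the highest library for both genes, with intervals apart from the other 3. NK-receptor T cells carry CD3 with Ncr1 or Klrb1c and no Cd8a or Cd8b1 UMI, while a Cd4 UMI was allowed. Their Klrk1 level was 369, 634, 820.4 and 1296 CPM, from 62, 14, 19 and 45 cells.

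**Figure D2:**
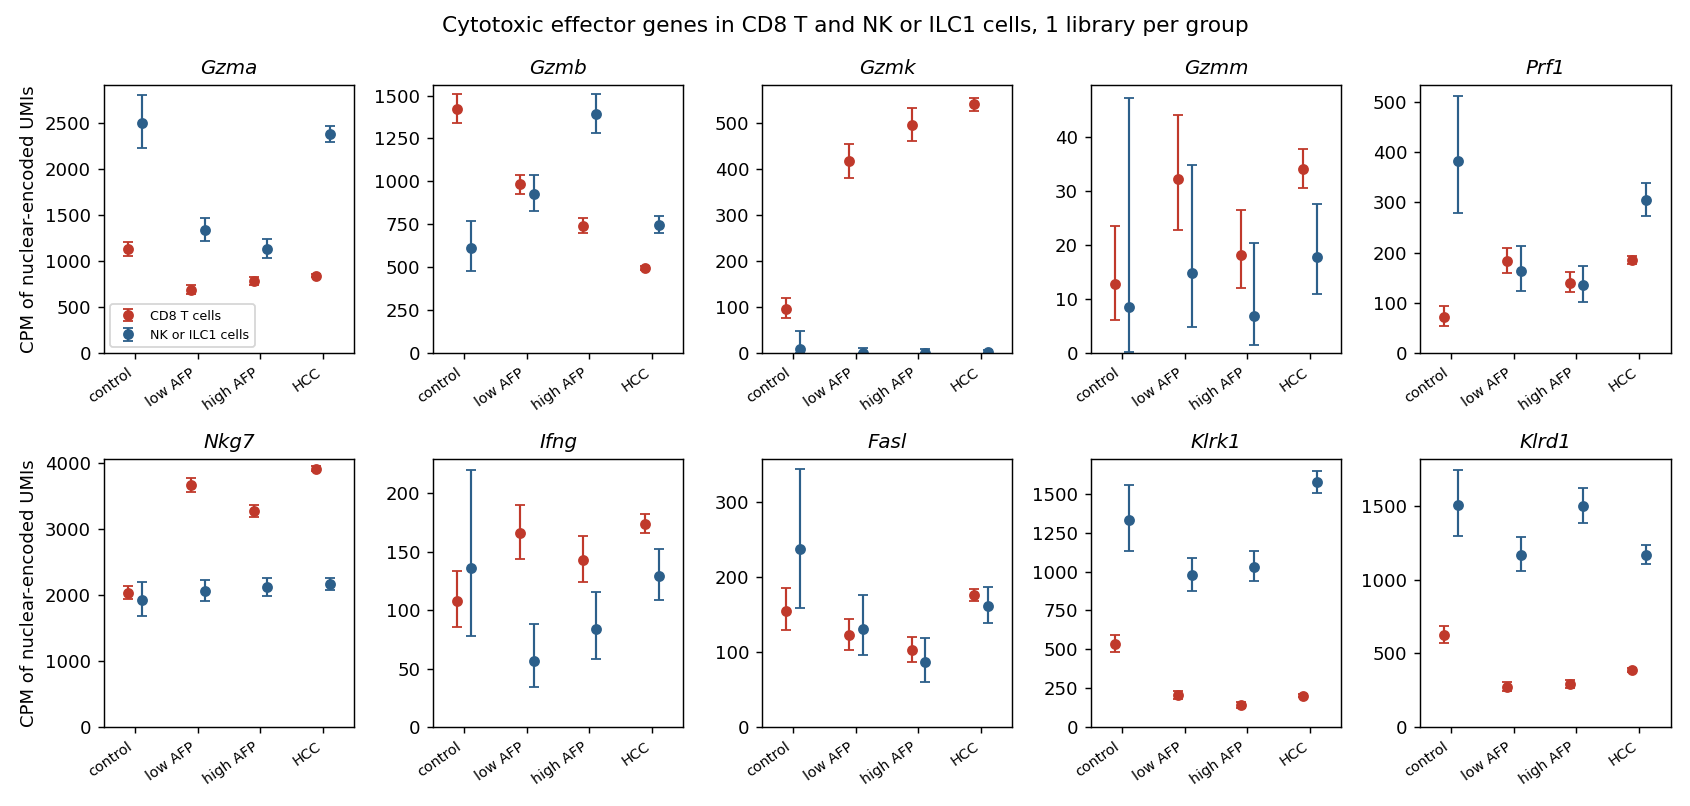
Each panel is 1 gene, with its level in CPM (vertical axis, from 0) in CD8 T cells (red) and NK or ILC1 cells (blue) of each library. Points are sums over all cells of the subset and bars are 95% exact Poisson intervals. In the red points Gzmb is highest and Gzmk lowest in control, and Gzmk lies near 0 in all blue points.

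To ask which members set the subsets apart, UMIs were summed per library and subset, and the 2 subsets were compared over the 4 libraries with edgeR's quasi-likelihood test, with the library as a block and Benjamini-Hochberg adjustment over all genes. Since the 4 libraries are 4 conditions, the test asks for a difference that recurs over them. Against CD8 T cells, NK or ILC1 cells had 3 of the 10 genes higher and 3 lower at an adjusted p under 0.05, where 6.21% of all 7889 genes tested were higher and 5.92% lower. The median log2 fold was 0.03 for the 10 and -0.01 for all genes. Klrd1 was higher by 1.78 on the log2 scale (SE 0.19, edgeR adjusted p = 0.00146), Klrk1 by 2.33 (SE 0.38, edgeR adjusted p = 0.0499) and Gzma by 0.99 (SE 0.16, edgeR adjusted p = 0.0089), each in all 4 libraries. The Klrk1 call lies at the threshold: without low-AFP, high-AFP or HCC its adjusted p was 0.183, 0.162 and 0.142 by the same test, with log2 folds of 2.08 to 2.35.

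Gzmk, Gzmm and Nkg7 were lower in NK or ILC1 cells in all 4 libraries. Gzmk had a mean of 2.57 CPM there against 388 in CD8 T cells (edgeR adjusted p = 1.55e-09). Its fitted log2 fold of -8.32 depends on the prior count and is no bound. Gzmm fell by 1.07 (SE 0.28, edgeR adjusted p = 0.0161) and Nkg7 fell by 0.67 (SE 0.12, edgeR adjusted p = 0.0105). Gzmb (log2 fold 0.08, SE 0.44), Prf1 (0.55, SE 0.50), Fasl (-0.02, SE 0.14) and Ifng (-0.69, SE 0.21) did not pass. Gzma lost its call without control (edgeR adjusted p = 0.136) and Gzmm without low-AFP (0.0507) or high-AFP (0.0675). Gzmm was also lost by DESeq2 (DESeq2 adjusted p = 0.15). With no library block Gzmm and Nkg7 were lost (edgeR adjusted p = 0.287 and 0.0673). The 29 Gzmm UMIs of NK or ILC1 cells lay in 13 of 390 cells, and 12 of the 20 in HCC in 1 cell.

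Gzmc, a granzyme beside Gzmb that rodents have, was higher in NK or ILC1 cells than in CD8 T cells but found in a minority of them. Of the 6 other granzymes of the genome list it was the one tested, and it was higher by 7.53 on the log2 scale (SE 0.24, edgeR adjusted p = 6.23e-10), at a mean of 636 against 3.47 CPM. Among 10 genes of granule making and release, Serpinb9, an inhibitor of granzyme B, rose by 1.72 (SE 0.17, edgeR adjusted p = 1.16e-06) and Ctsw, a cathepsin of cytotoxic cells, by 1.08 (SE 0.19, edgeR adjusted p = 0.00965), while Rab27a, which docks granules, fell by 1.04 (SE 0.22, edgeR adjusted p = 0.00346). The other 7 did not pass. Of 8 receptors for activating cytokines 5 were higher and 1 lower, among them Il2ra, the inducible receptor chain for interleukin 2, at 55.8 against 4.17 CPM and Il18rap at 139 against 26.95 CPM. Tbx21, the T-bet gene, rose by 1.52 (SE 0.20, edgeR adjusted p = 3.9e-05), and Prdm1, a repressor of memory genes, fell by 2.40 (SE 0.25, edgeR adjusted p = 1.81e-06).

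**Figure D3:**
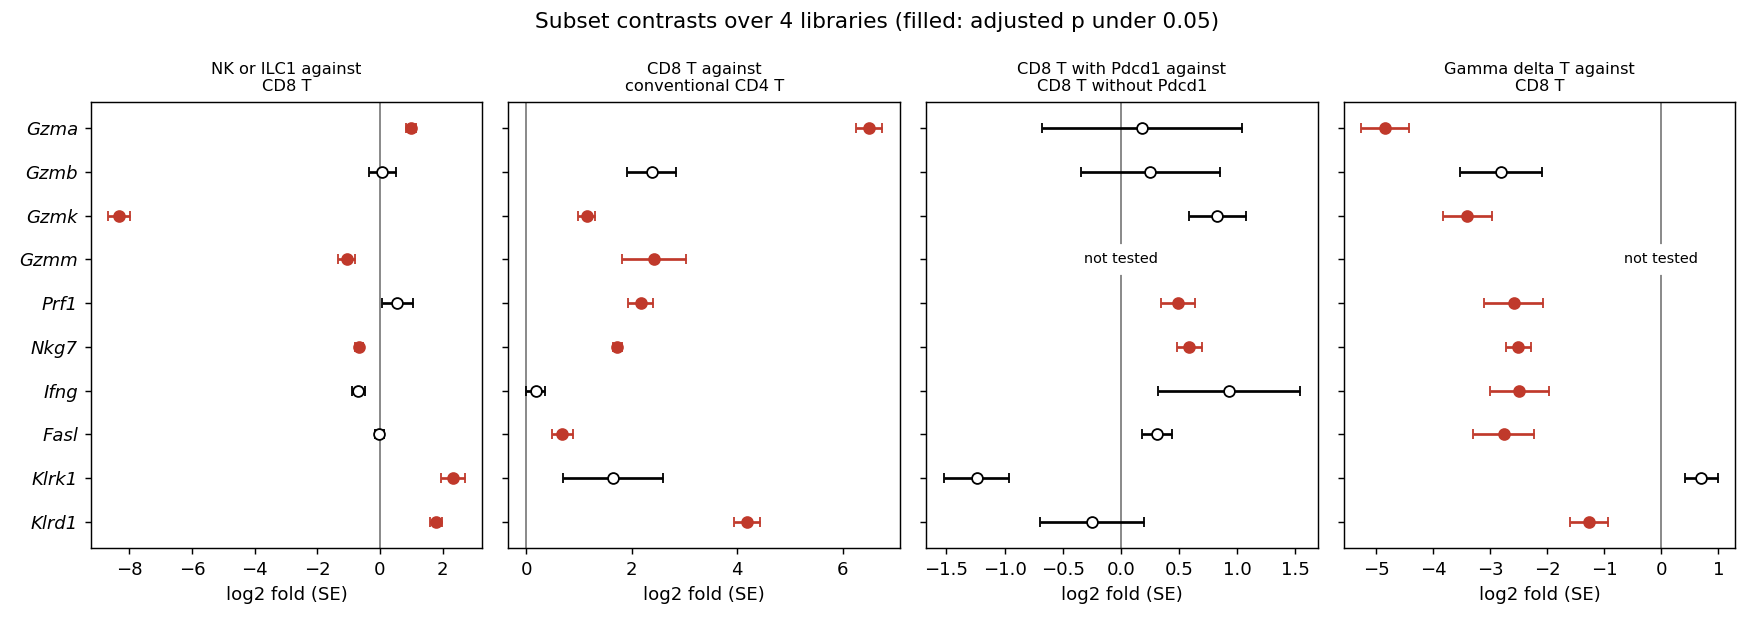
Points are log2 folds of the first over the second subset (horizontal axis, scale differs by panel) with SE bars, from edgeR over 4 libraries, and filled red points passed an adjusted p of 0.05. CD8 T cells exceed conventional CD4 T cells in 7 genes, and gamma delta T cells fall below CD8 T cells in 7.

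CD8 T cells exceeded conventional CD4 T cells in 7 of the 10 genes and were lower in 0, where 2.84% of 6341 genes tested were higher and 2.78% lower. The gates were not alike for the 2 subsets. Cd4 cells with an Ncr1 or Klrb1c UMI were counted as NK-receptor T cells, while CD8 T cells with such a UMI stayed in theirs. The part of this in the contrast was not tested. The median log2 fold was 1.95 for the 10 and 0.01 for all genes. Gzma showed the widest gap, 860.1 against 9.48 CPM (edgeR adjusted p = 8.86e-30), though its fitted log2 fold of 6.51 rests on 8 UMIs in CD4 T cells. Klrd1 rose by 4.18 (SE 0.24, edgeR adjusted p = 2.25e-20), Prf1 by 2.18 (SE 0.24, edgeR adjusted p = 4.61e-11), Nkg7 by 1.73 (SE 0.08, edgeR adjusted p = 3.73e-29) and Gzmk by 1.15 (SE 0.16, edgeR adjusted p = 2.45e-07), each in all 4 libraries. Gzmm (2.42, SE 0.61, edgeR adjusted p = 0.00636) and Fasl (0.69, SE 0.19, edgeR adjusted p = 0.0179) were higher in 3 of 4, and both lost the call without low-AFP (edgeR adjusted p = 0.139 and 0.251), as Fasl did without HCC (0.295). The Gzmm fold rests on 4 UMIs in 2 CD4 T cells. By DESeq2 neither Gzmm nor Fasl passed (DESeq2 adjusted p = 0.289 and 0.278). With no library block Gzmm, Fasl and Gzmk did not pass (edgeR adjusted p = 0.325, 0.646 and 0.816). Gzmb was higher in every library, by 2.38 (SE 0.46), but did not pass (edgeR adjusted p = 0.125). Its smallest gap was in HCC, 496 against 231 CPM. Ifng stood at 147 against 125 CPM and did not pass either. Klrk1, also not called, was at 57.5, 0, 0 and 218 CPM in CD4 T cells of the 4 libraries.

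Other genes of cytotoxic cells went with the 10. Of 13 NK receptors and adaptors 11 were tested and 8 were higher in CD8 T cells, led by Klre1 (log2 fold 4.22) and Cd244 (4.18). Of 10 granule genes, Cst7, an inhibitor of granule proteases, Ctsw and Ctsc, the cathepsin that activates granzymes, were higher, at 255, 358 and 121 CPM against 72.5, 173 and 71.1. Eomes, a T-box factor of cytotoxic cells, was higher by 1.98 (SE 0.22, edgeR adjusted p = 1.49e-10) and Runx3 by 1.10 (SE 0.15, edgeR adjusted p = 1.12e-07). In all, 4 of 6 naive cell genes were lower, Il7r and S1pr1 among them. Likewise 6 of 7 cell cycle genes were higher.

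CD8 T cells with a UMI of Pdcd1, the gene of the checkpoint receptor PD-1, were set against those without one. Of the 9 members that passed the low-count filter, Nkg7 (log2 fold 0.59, SE 0.11, edgeR adjusted p = 0.000604) and Prf1 (0.49, SE 0.15, edgeR adjusted p = 0.0437) were higher and 0 were lower, where 2.48% of 7050 genes were higher and 3.26% lower. Gzmm did not pass the filter and is therefore described only by its UMIs above. Gzmk was at 368, 559, 639 and 618 CPM in the cells with Pdcd1 and at 72.4, 321, 368 and 436 in those without; it was higher in 4 of 4 libraries and did not pass (edgeR adjusted p = 0.137). Klrk1 was lower in 4 of 4 libraries and did not pass (log2 fold -1.24, SE 0.28, edgeR adjusted p = 0.08). Median depths were 3753, 4391, 3994 and 4366 UMIs in cells with Pdcd1 and 4097, 4401, 3638.5 and 4237.5 in those without, and the part of depth in showing a Pdcd1 UMI was not tested. The control arm rests on 9 cells with Pdcd1, and without control 5 members passed. Without low-AFP neither Nkg7 nor Prf1 passed (edgeR adjusted p = 0.057 and 0.374), Prf1 was also lost without high-AFP or HCC, 1 member passed without high-AFP, and 0 passed with no library block. By DESeq2 Prf1 did not pass either (DESeq2 adjusted p = 0.626). In the same contrast 6 of 6 naive cell genes were lower, 3 of 3 tested checkpoint genes and 7 of 7 cell cycle genes were higher, and Tox, a factor of persistently stimulated T cells, was higher by 0.92 (SE 0.13, edgeR adjusted p = 1.51e-05).

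Gamma delta T cells held little of the cytotoxic set. From 5, 5, 8 and 37 cells, 7 of the 9 members that passed the filter were lower than in CD8 T cells and 0 higher, where 3.58% of 5674 genes tested were lower and 1.22% higher. Nkg7 was at 736 against 3217 CPM (log2 fold -2.51, SE 0.22, edgeR adjusted p = 1.52e-27) and Prf1 at 34.0 against 145 CPM (log2 fold -2.59, SE 0.52, edgeR adjusted p = 4.82e-05). Klrk1 stood apart, at 567 against 271 CPM and higher in 4 of 4 libraries, and did not pass (edgeR adjusted p = 0.184). Without HCC, which holds most of these cells, 4 members passed, and Prf1, Ifng and Klrd1 did not. Klrd1 was also lost without control (edgeR adjusted p = 0.277). By DESeq2 Ifng and Klrd1 did not pass (DESeq2 adjusted p = 0.329 and 0.383). With no library block Gzmk, Ifng and Klrd1 did not pass (edgeR adjusted p = 0.168, 0.185 and 0.0559). Regulatory T cells (10, 16, 16 and 46 cells) held few UMIs of most members. Gzmb was above conventional CD4 T cells in 1 of 4 libraries, low-AFP, at 186 against 139 CPM, from 13 UMIs in 2 of 16 cells. Groups this small leave wide limits: in high-AFP, 0 Gzmb UMIs had an upper limit of 107 CPM. Against conventional CD4 T cells 2 of the 10 genes passed the filter and Nkg7 fell by 3.24 (SE 0.43, edgeR adjusted p = 0.00656), to 94.2 against 999 CPM, where 1.46% of 1991 genes tested were lower and 1.16% higher. That call was lost by DESeq2 (DESeq2 adjusted p = 0.0928), with no library block (edgeR adjusted p = 0.16) and without low-AFP (edgeR adjusted p = 0.167).

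Between libraries, a gene was counted as different when its CPM differed at least 2-fold after adding 10 CPM to each value and reached 10 CPM in either library. In CD8 T cells of low-AFP against control, 2 of the 10 genes were higher and 2 lower, where 0.987% of 8616 genes were higher and 2% lower. In high-AFP 1 was higher and 2 lower (1.53% and 2.15% of 8711 genes), and in HCC 2 were higher and 2 lower (1.86% and 6% of 8594 genes). Gzmk was above control in all 3, by log2 folds of 2.01 (1.59 to 2.44) in low-AFP liver, 2.25 (1.85 to 2.67) in high-AFP liver and 2.38 (2.04 to 2.72) in HCC. Klrk1 was below control in all 3, by -1.35 (-1.66 to -1.04), -1.84 (-2.16 to -1.52) and -1.37 (-1.57 to -1.17). The 3 comparisons share the control library, so they are not independent. Prf1 was at least 2-fold higher in low-AFP liver (1.24, 0.72 to 1.77) and HCC (1.25, 0.86 to 1.66) and Klrd1 at least 2-fold lower in low-AFP liver (-1.17, -1.45 to -0.89) and high-AFP (-1.09, -1.35 to -0.83). Gzmb was lower by -1.50 (-1.63 to -1.38) in HCC, by -0.93 in high-AFP liver and by -0.53 in low-AFP liver. Median log2 folds of the 10 were 0.13, -0.11 and 0.41 against -0.10, -0.11 and -0.13 for all genes.

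Between HCC and high-AFP 0 of the 10 genes differed 2-fold in CD8 T cells, where 0.955% of 8271 genes were higher and 4.49% lower. The widest were Fasl, higher in HCC by 0.72 (0.45 to 1.00), and Gzmb, lower in HCC by -0.57 (-0.70 to -0.45). Gzmk was at 541 against 496 CPM and Gzma at 841 against 783, differences whose intervals on the log2 scale reach 0.

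The share of CD8 T cells with a Pdcd1 UMI also differed, being 9 of 179, 96 of 249, 143 of 341 and 1161 of 2075 cells. Within CD8 T cells without Pdcd1, Gzmk, Gzmb, Klrk1 and Klrd1 differed from control in the same directions as in all CD8 T cells. Ifng was below control in low-AFP liver instead. In high-AFP and HCC it stayed above control, with intervals that overlapped that of control. Ifng was at 110.1 CPM in control (87.1 to 137), 42.9 in low-AFP liver (29.1 to 60.9), 124.5 in high-AFP liver (101 to 152) and 132 in HCC (122 to 144). Fasl in HCC was at 176 CPM against 155 in control in all CD8 T cells. In those without Pdcd1 it was at 149.5 against 154.6, and the intervals overlapped each time. Gzmk was at 72.4 CPM in control and 321, 368 and 436 in low-AFP liver, high-AFP and HCC, and Gzmb at 1516 in control and 699, 578 and 371 in the others. Within cluster 4 alone, which holds most CD8 T cells of the first 3 libraries, Gzmk was at 83.9 CPM in control, 430.3 in low-AFP liver and 479 in high-AFP liver, and Klrk1 at 525, 214 and 142. Klrk1 in CD8 T cells without Pdcd1 was at 563 in control and 300.2 or less in the others, and Klrd1 at 669 in control and 309.9 or less.

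Looking at single CD8 T cells of at least 1000 UMIs shows how Gzmb and Gzmk were combined. In control 54.2% had Gzmb without Gzmk, 15.3% had both, 6.78% had Gzmk without Gzmb and 23.7% had neither, of 177 cells. In low-AFP (245 cells) these shares were 11.8%, 51.4%, 19.2% and 17.6%, and in high-AFP liver (338 cells) 11.8%, 49.4%, 19.5% and 19.2%. In HCC (2060 cells) they were 6.55%, 47.8%, 31.5% and 14.1%. Control was the library in which cells with Gzmb alone were most frequent, and cells with Gzmk alone were most frequent in HCC. A granzyme together with Prf1 was found in 19.2%, 44.1%, 32.8% and 44.9% of cells. A missing UMI does not show a missing transcript at these depths.

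**Figure D4:**
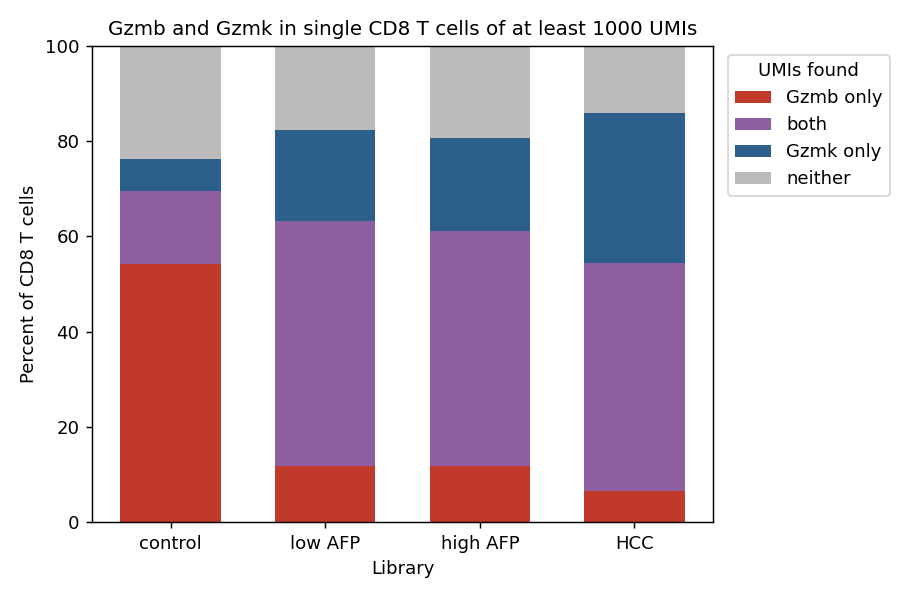
Bars split the CD8 T cells of each library (horizontal axis) by whether a UMI of Gzmb, of Gzmk, of both or of neither was found, in percent of cells. The red part, Gzmb alone, is 54.2% in control and at most 11.8% in the other libraries.

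Other CD8 T genes differed between the libraries along with these members. Of 12 measured NK receptors and adaptors, 7 were at least 2-fold lower than control in low-AFP liver, 8 in high-AFP liver and 6 in HCC, where Klrc1 was higher, against 2%, 2.15% and 6% of all genes lower. Fcer1g, an adaptor of activating receptors, was at 491 CPM in control and 51.9, 128 and 39.7 in the other libraries. Cd160, a receptor of killer cells, was at 548.5 CPM in control and 151, 85.1 and 131 in the other libraries, and Klre1 at 464, 97.3, 49.98 and 193. The chemokine genes Ccl3 and Ccl4 went the other way, with Ccl3 at 67.9, 761, 631 and 1101 CPM, while Xcl1, another chemokine gene, was at 928, 209, 173 and 197. Checkpoint genes were higher in 3 of 4 measured in low-AFP liver, 3 of 3 in high-AFP liver and 4 of 4 in HCC, against 0.987%, 1.53% and 1.86% of all genes, with Havcr2 at 2.56, 65.9, 89.2 and 96.8 CPM, and Tox at 117, 276, 279.6 and 492. Eomes was at 56.4, 142, 159 and 279.6 CPM. Of the 10 granule genes 0 differed 2-fold in low-AFP liver and high-AFP, and Ctsw was lower in HCC, at 266 against 555 CPM.

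Taking the T and NK lineage as a whole, 1 of the 10 genes was higher in low-AFP liver and 1 in high-AFP liver, Gzmk each time (0.572% of genes higher and 0.595% lower in low-AFP liver, 0.837% and 0.767% in high-AFP). In HCC 4 were higher, Gzmk, Prf1, Nkg7 and Gzmm, where 1.47% of 8501 genes were higher and 5.18% lower. Members lower in these 3 comparisons numbered 0. Between HCC and high-AFP 0 members differed in either direction, where 0.813% of 8365 genes were higher and 4.61% lower. The share of CD8 T cells in the lineage moved with these values, from 37.8% in control to 77.3% in HCC. Gzmk in the lineage was at 58.4, 258, 331 and 455 CPM, and the difference from control was also present within CD8 T cells alone, at 96.1, 417, 496 and 541 CPM. The part of the CD8 T share in the lineage values of Prf1, Nkg7 and Gzmm was not tested.

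In the HCC library CD8 T cells of 2 clusters differed in their levels of the 10 genes. The share of all genes that differed between these clusters was not counted. Cluster 33 (1488 cells) held Gzma at 1207 CPM (1180.3 to 1235), Gzmb at 661 (641 to 681), Gzmk at 676 (656 to 697) and Nkg7 at 4984 (4929 to 5039.5). Cluster 28 (515 cells) held them at 92.5 (81.6 to 104), 152 (138 to 167), 253 (235 to 272) and 2029.8 (1977 to 2083). Prf1, Ifng, Fasl and Klrd1 were at 232, 228, 229.6 and 496 CPM in cluster 33 and at 109.6, 76.8, 93.6 and 220.3 in cluster 28. Gzmm ran the other way, at 1.11 CPM (0.448 to 2.30) in cluster 33 and 111 (99.4 to 124) in cluster 28, and Klrk1 too, at 144 (135 to 154) and 355 (333 to 377). The clusters were formed without the 10 genes but with genes that go with them, so this is a description within 1 library and carries no test.

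In NK or ILC1 cells few members differed between libraries, beside a large share of all genes. Low-AFP against control had 0 members higher and 2 lower (10.7% of 8574 genes in each direction), high-AFP against control 1 higher and 3 lower (9.73% and 8.44% of 8533 genes), and HCC against control 0 in either direction (7.82% and 10.5% of 8314 genes). The counts of 2 and 3 members lower lie above the shares of all genes, and the other counts lie near or below them. The control group holds 31 cells and no test was made, so these counts are not read as a result about the members. Without the cycling cluster 0 members differed between low-AFP and control. Between the 2 larger groups, HCC against high-AFP, 2 were higher and 0 lower, where 1.93% of 8337 genes were higher and 5.15% lower: Prf1 by 1.12 (0.62 to 1.63) and Gzma by 1.07 (0.88 to 1.25). Gzmb was lower there by -0.88 (-1.10 to -0.67).

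Gzmc and Eomes moved with this. Eomes, a factor of conventional NK cells that liver ILC1 lack, was at 203 CPM in control, 26.8 in low-AFP liver, 13.9 in high-AFP liver and 75.8 in HCC. Gzmc was at 237, 947, 1161 and 201 CPM. Cells with an Eomes UMI were 8 of 31 in control (25.8%), 6 of 53 in low-AFP liver (11.3%), 6 of 95 in high-AFP liver (6.32%) and 40 of 211 in HCC (19.0%), a split made after these values were seen. In HCC, where this split has most cells, those with Eomes held Gzma at 5564 CPM (5262 to 5879) against 1567 (1486 to 1651), and Prf1 at 728 (622 to 848) against 196 (168 to 227). Gzmc was at 4.39 CPM (1 UMI) with Eomes and 251 (219 to 286) without. Among cells without Eomes a Gzmc UMI was found in 2 of 23 in control, 16 of 47 in low-AFP liver, 31 of 89 in high-AFP liver and 27 of 171 in HCC. The same order was seen in control, low-AFP and high-AFP, from few cells. Gzma there was at 8701, 6742 and 4192 CPM with Eomes and 515, 884 and 942 without, and Gzmc had 1, 0 and 0 UMIs with Eomes. In low-AFP and in high-AFP these Gzma UMIs lay in 3 of the 6 cells with Eomes. Prf1 intervals overlapped in high-AFP, at 240 CPM (87.9 to 521) with Eomes and 128 (95.8 to 168) without. Gzmb did not follow this order, at 816 CPM with and 732 without Eomes in HCC and 279 with and 1460 without in high-AFP liver. Cell cycle genes also moved in these cells, with a summed level of 25.4, 905, 413 and 152 CPM; their part in the member values was not tested.

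**Figure D5:**
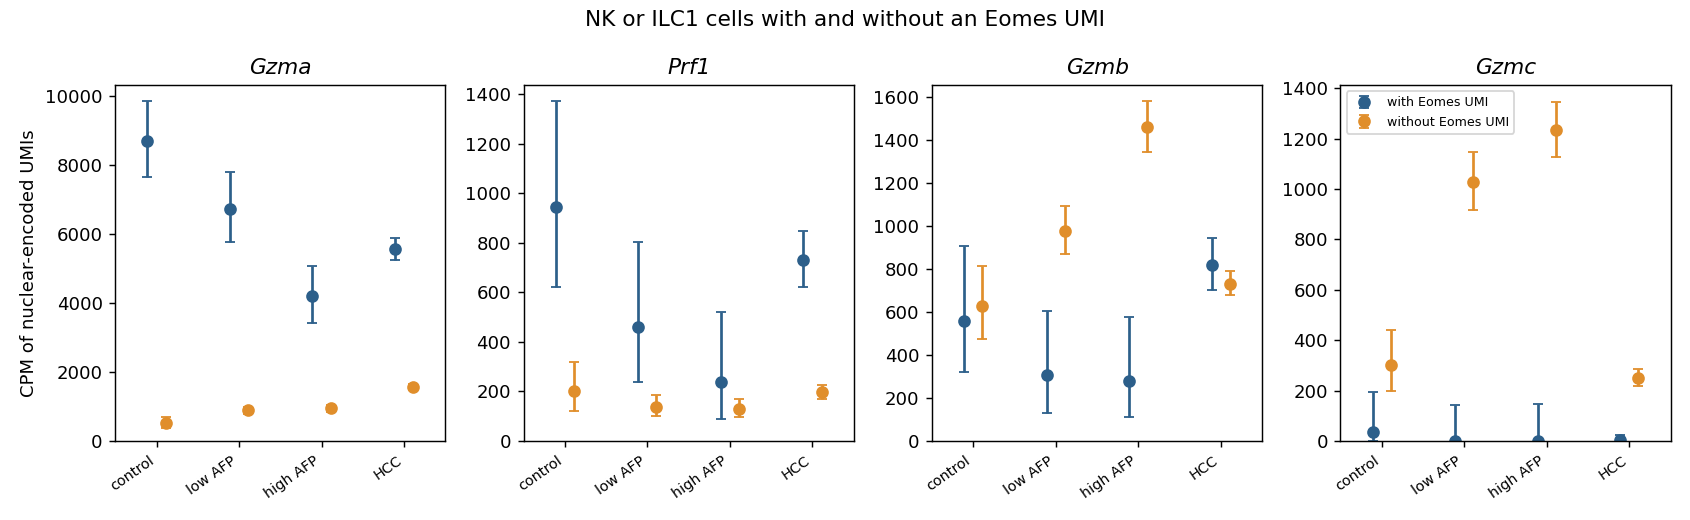
Levels in CPM (vertical axis, from 0, scale differs by panel) of 4 granzyme and perforin genes in NK or ILC1 cells with (blue) and without (orange) an Eomes UMI, by library, with 95% exact Poisson intervals. Gzma is higher in the blue points of all 4 libraries, and Gzmc lies near 0 in them.

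The genes whose level was most like the summed level of the 10 were sought over 23 combinations of subset and library with at least 30 cells, among 2815 genes. By Pearson correlation of log2(CPM + 10) these included Ctsd (0.91), Chsy1 (0.90), Slamf7 (0.87), Plek (0.86), Sytl3 (0.83), Ccl3 (0.82), Stard3nl (0.82), Ccl5 (0.82) and Runx3 (0.80). The sum is of CPM, so abundant members such as Nkg7 and Gzma weigh most in it. The points share libraries and parts of the cell types, so this is a description with no test.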

How the data were processed

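Single-cell RNA was measured in 4 libraries, 1 per group, prepared with a 10x 3' kit (version 2 per the labels' protocols). The authors deposited whole-number UMI counts per gene and barcode, made with Cell Ranger 3.0.2 per the file headers. The submitters' processing notes also name R 3.0, Seurat 3 and the mm9 build, with no role given. Total UMIs per library were 65326793 to 97393862. Barcodes below 300 genes or 500 UMIs, or above 30% mitochondrial UMIs, were dropped. Scrublet's automatic threshold marked under 0.5% of barcodes, so the highest-scored barcodes were removed instead, at 0.8% per 1000 barcodes. Cells were clustered with scanpy 1.11.5 and leidenalg 0.10.2 (2000 variable genes without the 10 and other granzymes, 30 components, 15 neighbours, resolution 1). Of 34 clusters 30 were named by markers. The other 4, left unnamed by a rule set after their values were seen (second marker score at least 0.6 of the first), held 198, 95, 118 and 283 cells, among them a B and T mixture of 26, 13, 17 and 5 cells. Contrasts between subsets used edgeR 4.0.16 (R 4.3.3, quasi-likelihood, TMM, library block, Benjamini-Hochberg over all genes, threshold 0.05), tested on simulated counts. The 10 genes and all gene lists were chosen with earlier results of these data known. From each list, up to 4 genes with the largest change past the threshold could be named, and 10 genes by correlation, of which 1 is not reported here. Alternatives were DESeq2 1.42.0, other scaling, filters, gates, doublets kept, 15% mitochondrial UMIs, a pseudocount of 1 CPM, a minimum of 50 CPM, and leaving out single cells or libraries. Leaving out the cycling cluster was added after seeing the data.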

Additional observations from a re-analysis of the deposited data

Results flagged for a closer look

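For 5 gene comparisons the libraries moved in opposite directions, with 1 library each, so the difference between libraries was not tested. Values are log2 ratios of CPM with 10 added to each. Gzmb in NK or ILC1 cells against CD8 T cells was -1.21 in control but 0.90 in high-AFP and 0.58 in HCC liver. In CD8 T cells with a Pdcd1 UMI against those without, Gzma was -4.41 in control and 1.08 and 1.14 in high-AFP and HCC. Gzmb in the same comparison was -2.01 in control and 0.99, 0.67 and 0.65 in the libraries labelled low-AFP, high-AFP and HCC. Klrd1 was -2.00 in control, -0.47 in low-AFP and 0.67 in HCC. The control values of the Pdcd1 comparison rest on 9 cells with Pdcd1. Klrk1 in regulatory against conventional CD4 T cells was 3.63 in low-AFP, where the CD4 T cells had 0 UMIs and all 8 UMIs of the regulatory T cells lay in 1 of 16 cells, and -4.51 in HCC, where the regulatory T cells had 0. Against groups at 0 UMIs these ratios depend on the 10 CPM added and are no bounds.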

How the results depend on the processing

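Counts of called members were within 1.5 times the reported count in 50 of 65 alternatives for the subset contrasts and in 94 of 102 for the library comparisons. NK or ILC1 against CD8 T cells had 4 to 7 of 10 genes called over alternatives, not always the same genes (reported 6, and 4 to 6 with a library left out). For CD8 T against conventional CD4 T cells the count was 4 with the lineage set by gates alone and 5 to 7 with a library left out (reported 7). With against without Pdcd1 it was 2 as reported, 5 with no low-count filter, 0 with no library block, 4 with doublets kept, 4 by gates alone, 5 without the cycling cluster and 1 to 5 with a library left out (5 without control, 1 without high-AFP). For gamma delta T cells it was 7, 4 with no library block and 4 to 8 with a library left out. For regulatory T cells it was 1, 0 by DESeq2, 4 with no filter, 0 with no block and 1 to 2 with a library left out. Calls over all genes ranged over alternatives from 387 to 1470 for NK or ILC1 cells (reported 957, 458 to 1133 with a library left out), 82 to 455 for CD4 T cells (356, 225 to 389), 22 to 584 for Pdcd1 (405, 149 to 723), 84 to 380 for gamma delta T cells (272, 98 to 301) and 13 to 160 for regulatory T cells (52, 17 to 110). In the lineage, low-AFP against control had 1 member called as reported, 3 with a pseudocount of 1 and 2 at 15% mitochondrial UMIs; high-AFP had 1, and 2 with a pseudocount of 1; HCC against high-AFP had 0, and 1 with doublets kept. In NK or ILC1 cells low-AFP had 2, 4 with each cell weighted equally, 4 with doublets kept and 0 without the cycling cluster. HCC against high-AFP had 2 there, and 1 with each cell weighted equally. Calls over all genes moved too. In the lineage they ranged from 58 to 329 for low-AFP (reported 100) and 72 to 394 for high-AFP (138), both against control. For HCC against high-AFP they ranged from 211 to 749 (454). In NK or ILC1 cells they ranged from 547 to 2707 for low-AFP (1839) and 253 to 1383 for HCC against high-AFP (590).

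Signs turned only for members that were not called. With a library left out, values ran over the range given last. Fasl in NK or ILC1 against CD8 T cells (-0.02) was 0.029 without TMM, 0.023 with no block, 0.018 with gates of 2 UMIs, 0.072 with doublets kept, 0.26 by gates alone, and -0.15 to 0.0701 (without control and without high-AFP). Gzmb in NK or ILC1 against CD8 T cells (0.08) was -0.00706 with no block, and -0.23 to 0.43 (without high-AFP and without control). Ifng in CD8 T against conventional CD4 T cells (0.18) was -0.083 with gates of 2 UMIs. Gzma in CD8 T with Pdcd1 against CD8 T without Pdcd1 (0.18) was -0.16 by DESeq2, and -0.27 to 0.77 (without high-AFP and without control). Klrd1 in CD8 T with Pdcd1 against CD8 T without Pdcd1 (-0.25) was 0.14 without the cycling cluster, and -0.64 to 0.094 (without HCC and without control). Gzmb in CD8 T with Pdcd1 against CD8 T without Pdcd1 (0.25) was between -0.0467 (without low-AFP) and 0.73 (without control). Klrk1 in NK or ILC1 against CD8 T cells lost its call with no filter (edgeR adjusted p = 0.106), with gates of 2 UMIs (0.0564) and at 15% mitochondrial UMIs (0.0569), with a range of 6.63e-13 (DESeq2) to 0.183 over all alternatives. Ifng in NK or ILC1 against CD8 T cells gained a call with no filter (edgeR adjusted p = 1.55e-05), with gates of 2 UMIs (0.0131), without the cycling cluster (0.00662) and without control (0.00565), and reached 0.415 with doublets kept. The cause was not tested. Between groups, no paired analysis was possible because each has 1 library and the labels give no replicate numbers; the subset contrasts pair subsets by library.

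With 1 library per group, no value here parts group from animal, preparation or sequencing. Small groups also limit precision: 31 control NK or ILC1 cells, 9 control CD8 T cells with Pdcd1 and 5 gamma delta T cells each in control and low-AFP.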
